A study of Mus musculus with 8 samples.

Results

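The genes described here are 56 genes of mitosis, the kinetochore and the spindle, chosen by name with earlier results of these data known. A gene was represented by the array probes annotated with its symbol or an older synonym. Of the 56 genes, 55 had a named probe and were tested, among 25647 genes tested in all. They were represented by 60 of 39341 probes: 50 genes by 1 probe and Aurka, Ccnb1, Ncapd2, Ncapg and Ncaph by more. Ube2c, a ubiquitin-conjugating enzyme that works with the anaphase-promoting complex, was not analysed here.

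RNA of whole lungs was hybridised to 8 Agilent arrays with 2 colours. TGFb1-Tg mice (4 lungs) carried an inducible transgene for active human TGF-β1, and WT mice (4 lungs) were wild type. All were labelled as B6J mice of 10 weeks, and the labels' protocol gives doxycycline, which switches the transgene on, at 1 mg/ml in drinking water with harvests between 2 and 14 days. The file headers put every lung at day 14 and the WT lungs on water instead. The promoter that drives the transgene is not given in the sources used here. Each array set Cy5-labelled RNA of a lung against Cy3-labelled RNA of a control pool, and the level used below is the log2 ratio of sample over pool. The sources differ on that pool. Per the labels it was made of combined WT replicates on every array. Per the headers, TGFb1-Tg lungs were set against pooled RNA of 4 transgenic mice given water, and WT lungs against that of 4 wild-type mice given water. Under either version, WT ratios average near 0 by construction. Under the headers' version, effects of doxycycline and of the induced transgene cannot be told apart. The difference between the groups then in effect sets TGFb1-Tg lungs against the pool of transgenic mice given water.

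Mouse Tgfb1, the endogenous gene, read a mean log2 ratio of 1.06 ± 0.12 in TGFb1-Tg lungs and 0.03 ± 0.12 in WT lungs (SD, n = 4 each), a difference of 1.03 (2.04-fold, exact two-sided permutation p = 0.0286, the smallest that 4 against 4 lungs allow). The sample channel alone gave 1.45 and quantile-normalized ratios 0.63. Whether its probe also reads the human transgene was not tested. Xist, the RNA of the inactive X chromosome, had sample intensities of 0.01 to 0.02 in the TGFb1-Tg lungs, against 4.6, 0.03, 0.04 and 0.03 in WT lungs. In the pool channel Xist read 0.01 to 0.02 on TGFb1-Tg arrays, against 1.04 to 1.13 on WT arrays, so the pools hybridised were not the same RNA. The labels' version, with the same combined WT pool on every array, does not match these values. WT replicate 1 thus stood apart from the other 7 lungs in Xist. Without it, 53 members were called higher and 1 lower, as with it. Of the other lung markers measured, Foxj1 of ciliated cells and Pecam1 and Cldn5 of endothelium were measured in every lung and were lower in TGFb1-Tg lungs, in the ratio by 0.74, 0.48 and 0.78 on the log2 scale. Their differences in the sample channel alone were -0.34, -0.21 and -0.29, and they were not called (limma adjusted p = 0.097, 0.149 and 0.0801), while with quantile normalization of that channel all 3 were called lower. Sftpc and Scgb1a1 had too few values for a test.

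In mitosis, CDK1 bound to B-type cyclins drives the cell into division, and kinases of the Polo and Aurora families build the spindle. Kinetochores attach chromosomes to microtubules, and a checkpoint delays anaphase until all are attached. The anaphase-promoting complex then releases separase to cut cohesin, and the central spindle guides cytokinesis. Many of these genes are transcribed late in the cell cycle, through promoter elements named CHR and CCAAT and the factors FOXM1 and B-MYB. Most cells of an adult lung are not dividing.

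Because these genes share a late cell-cycle programme, their promoters were searched for such elements. RefSeq promoter windows on GRCm38.p6 were matched for 44 of the 55 members, giving 48 windows. The 150 bases before the start site were read on both strands for the CHR letters TTTGAA, with the variant TTCGAA, for the CCAAT box, and for the E2F letters TTCGCGC, with the variant TTGGCGC, which can overlap a reversed CCAAT. Shown first are the 100 bases before the start of 5 members that hold CCAAT 25 to 40 bases upstream of a CHR, then those of Pttg1 and Mybl2, the members with the lowest difference and the smallest called rise. Each line runs 5′ to 3′ on the gene's strand, and capitals mark matches on either strand.
Cdk1, chr10:69352913-69353012, minus strand: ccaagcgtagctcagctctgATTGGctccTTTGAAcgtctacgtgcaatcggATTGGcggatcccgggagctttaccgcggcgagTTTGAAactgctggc
Cdc20, chr4:118437344-118437443, minus strand: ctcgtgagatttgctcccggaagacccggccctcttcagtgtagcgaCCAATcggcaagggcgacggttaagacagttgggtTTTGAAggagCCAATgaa
Kif22, chr7:127042421-127042520, minus strand: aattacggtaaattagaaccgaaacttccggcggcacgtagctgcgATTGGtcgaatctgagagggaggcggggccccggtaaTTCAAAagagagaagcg
Kif11, chr19:37376282-37376381, plus strand: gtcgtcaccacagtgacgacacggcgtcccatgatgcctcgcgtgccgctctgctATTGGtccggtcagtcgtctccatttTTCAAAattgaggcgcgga
Top2a, chr11:99024190-99024289, minus strand: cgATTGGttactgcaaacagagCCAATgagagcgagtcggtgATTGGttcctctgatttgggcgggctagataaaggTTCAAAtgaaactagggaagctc
Pttg1, chr11:43425982-43426081, minus strand: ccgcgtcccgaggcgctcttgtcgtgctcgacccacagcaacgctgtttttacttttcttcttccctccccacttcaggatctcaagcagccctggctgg
Mybl2, chr2:163054535-163054634, plus strand: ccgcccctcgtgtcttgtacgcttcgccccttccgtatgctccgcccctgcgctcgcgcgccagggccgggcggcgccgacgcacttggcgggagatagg

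Members held a CHR in 16 of 48 windows (33.3%), against 9.7% of all 32851 windows of that length, and CCAAT in 64.6%, against 24.5%. E2F letters stood in 14.6% of the members' windows and in 2.19% of all. Both a CHR and CCAAT stood in 27.1% of member windows and in 2.43% of all. In Cdc20, Cdk1, Kif11, Kif22, Mki67, Ncapd2, Prc1 and Top2a a CCAAT lay 25 to 40 bases before a CHR, an arrangement in 16.7% of the members' windows and 0.298% of all, with that distance chosen after the values were seen. The windows of Pttg1 and Mybl2 that are printed above hold none of these exact letters. Neither do those of Birc5, Nuf2, Nusap1, Melk, Ndc80, Anln, Mad2l1, Cenph and Ncaph. All of these were called higher, with differences from 0.18 for Ncaph to 2.10 for Birc5. Only exact letters were searched, so other forms of these elements were missed. The printed Mybl2 window holds TTGGCGG, which differs from the searched TTGGCGC in its last letter. A match describes the letters and is not a measured binding site.

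Across the gene list, mitosis genes were higher in the TGFb1-Tg lungs. By limma at a Benjamini-Hochberg adjusted p under 0.05 over all genes tested, 53 of 55 members (96.4%) were called higher, where 19% of all genes were. Pttg1 was called lower, where 19.8% of all genes were, and Kif23 was not called. The same shares of all genes, 19% higher and 19.8% lower, apply to the ratio counts of the role groups and other mitosis genes below. Every TGFb1-Tg ratio lay above every WT ratio in 53 members, against 18.2% of all genes. A rise of at least 2-fold was called in 45 members (81.8%), against 1.91% of all genes, and of at least 4-fold in 17 members (30.9%), against 0.246%. A called fall of at least 2-fold was seen in 0 members, against 1.6% of all genes; the lowest member, Pttg1, was at 0.61-fold. The median difference was 1.70 over the members and 0.0 over all genes, with 5% of all genes above 0.58. The bulk RNA cannot tell more cells of a type from more RNA per cell.

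**Figure D1:**
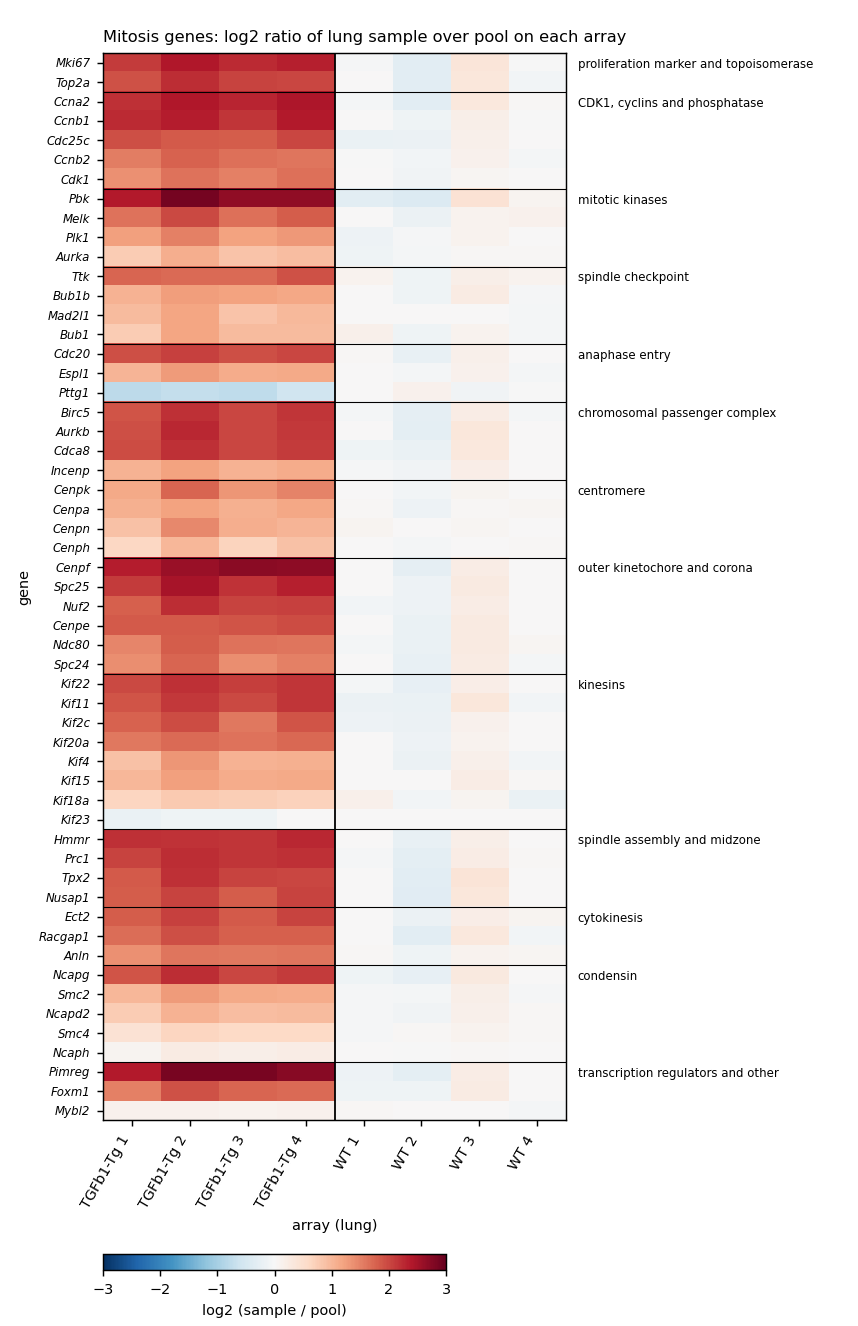
Log2 ratio of lung sample over pool for each of the 55 members (rows, in role groups) on each array (columns, TGFb1-Tg 1 to 4 left of WT 1 to 4). On the TGFb1-Tg arrays 53 members are red, Ncaph and Mybl2 only faintly, while Pttg1, with a difference of -0.71, is blue and Kif23, at -0.11, is pale; the WT arrays lie near 0.

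Mki67 encodes the proliferation antigen Ki-67, which coats mitotic chromosomes. Its sample intensity was 4.22, 5.21, 4.54 and 4.62 in TGFb1-Tg lungs, against 0.89, 0.68, 1.1 and 0.83 in WT lungs. All 4 TGFb1-Tg lungs were far above all WT lungs, with a log2 ratio difference, TGFb1-Tg minus WT ± SE here and below, of 2.27 ± 0.14 (4.82-fold, limma adjusted p = 3.80e-05). Top2a, the topoisomerase that untangles sister chromatids, read 0.71, 0.97, 0.78 and 0.64 in TGFb1-Tg lungs, against 0.19, 0.12, 0.24 and 0.15 in WT lungs. The groups did not overlap, and the difference was 2.06 ± 0.14 (4.16-fold, limma adjusted p = 5.48e-05).

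All 5 genes of CDK1, its cyclins and the activating phosphatase were called higher, with a median difference of 1.95. Cdk1, the kinase that starts mitosis, had intensities of 3.02, 3.6, 3.28 and 3.27 in TGFb1-Tg lungs, against 1.02, 0.99, 1.17 and 0.86 in WT lungs. The difference of 1.55 ± 0.07 (2.92-fold, limma adjusted p = 1.27e-05) was the smallest of this group. Ccna2, cyclin A2, read 2.64, 3.3, 2.82 and 3.02 in TGFb1-Tg lungs, against 0.47, 0.4, 0.6 and 0.53 in WT lungs, with a difference of 2.34 ± 0.14 (5.05-fold, limma adjusted p = 2.89e-05). For Ccnb1, cyclin B1, the mean of 2 probes was 0.97, 1.065, 0.9 and 1.045 in TGFb1-Tg lungs, against 0.215, 0.205, 0.27 and 0.24 in WT lungs. Its difference was 2.26 ± 0.08 (4.8-fold, limma adjusted p = 6.67e-06), and its probes gave 2.12 and 2.40. Ccnb2, cyclin B2, had a difference of 1.65, and Cdc25c, the phosphatase that activates CDK1, of 1.95, although its pool intensity was only 0.05 to 0.09 across the arrays, where the deposited 2 decimals are coarse.

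The 4 mitotic kinases were all called higher, with a median of 1.54. Pbk, a kinase of mitotic cells, was the largest of them: its intensities were 1.3, 1.9, 1.58 and 1.65 in TGFb1-Tg lungs, against 0.16, 0.12, 0.23 and 0.19 in WT lungs. No WT lung reached any TGFb1-Tg lung, and the difference was 2.70 ± 0.21 (6.49-fold, limma adjusted p = 8.28e-05). Plk1, the Polo kinase of spindle assembly, read 0.56, 0.71, 0.6 and 0.76 in TGFb1-Tg lungs, against 0.29, 0.32, 0.28 and 0.19 in WT lungs, a difference of 1.33 ± 0.08 (2.51-fold, limma adjusted p = 3.48e-05). Aurka, the centrosomal Aurora kinase, had a difference of 0.94 ± 0.08 over 2 probes; its brighter probe gave 1.68, with intensities of 0.95, 1.1, 1.05 and 1.15 in TGFb1-Tg lungs, against 0.29, 0.23, 0.32 and 0.3 in WT lungs, and its other probe, near the lowest deposited value, gave 0.20. Melk had a difference of 1.76.

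**Figure D2:**
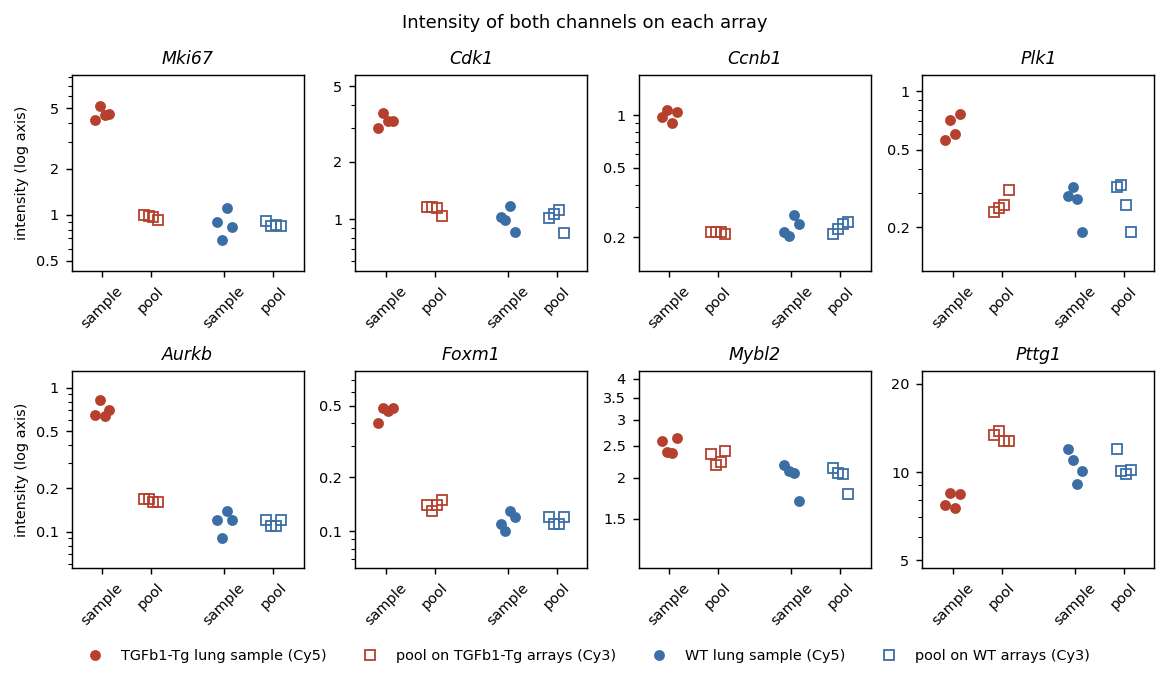
Intensity on a log axis of both channels on each array, for 8 members: filled circles are lung samples (Cy5), open squares are pools (Cy3), red is TGFb1-Tg and blue is WT. In all but Mybl2 and Pttg1 the 4 TGFb1-Tg samples lie well above the other values; Mybl2 samples are 2.38 to 2.64 on TGFb1-Tg arrays, against 1.7 to 2.18 on WT arrays.

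Spindle checkpoint genes rose in all 4 cases tested, with a median of 1.08. Ttk, the kinase that recruits the checkpoint to unattached kinetochores, read 0.3, 0.36, 0.36 and 0.34 in TGFb1-Tg lungs, against 0.13, 0.11, 0.17 and 0.13 in WT lungs, a difference of 1.70 ± 0.08. Bub1, another checkpoint kinase, read 0.46, 0.61, 0.52 and 0.5 in TGFb1-Tg lungs, against 0.29, 0.23, 0.27 and 0.27 in WT lungs, and its difference of 0.93 ± 0.10 was the smallest of the 4. The groups of both genes did not overlap. Bub1b and Mad2l1, parts of the inhibitory checkpoint complex, had differences of 1.15 and 1.01.

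Anaphase entry split. Cdc20, the activator of the anaphase-promoting complex, rose, with intensities of 1.94, 2.31, 2.05 and 2.17 in TGFb1-Tg lungs, against 0.47, 0.42, 0.53 and 0.48 in WT lungs and a difference of 1.99 ± 0.08 (3.97-fold, limma adjusted p = 8.51e-06). Espl1, the protease separase, had a difference of 1.13. Pttg1 encodes securin, which inhibits separase. Its sample intensity was 7.74, 8.47, 7.54 and 8.4 in TGFb1-Tg lungs, against 12.01, 10.98, 9.14 and 10.07 in WT lungs, and its ratio difference was -0.71 ± 0.06 (0.61-fold, limma adjusted p = 0.000115). Its pool intensity was 13.35, 13.84, 12.77 and 12.72 on TGFb1-Tg arrays, against 12, 10.1, 9.83 and 10.17 on WT arrays. TGFb1-Tg samples lay below all WT samples, and the pool on TGFb1-Tg arrays lay above every pool value on WT arrays. In the sample channel alone, centred on array medians, the difference was -0.10 (adjusted p = 0.547), and with quantile normalization it was -0.54 (adjusted p = 0.00133); adjusted p spanned 1.05e-05 to 0.547 over all settings.

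The chromosomal passenger complex corrects kinetochore attachments, and its 4 genes were all called higher, with a median of 2.07. Birc5, survivin, read 2.46, 3.13, 2.55 and 2.73 in TGFb1-Tg lungs, against 0.51, 0.4, 0.64 and 0.44 in WT lungs, a difference of 2.10 ± 0.11 (4.29-fold, limma adjusted p = 2.27e-05). Aurkb, its kinase, read 0.65, 0.82, 0.64 and 0.7 in TGFb1-Tg lungs, against 0.12, 0.09, 0.14 and 0.12 in WT lungs, a difference of 2.07 ± 0.14 (4.2-fold, limma adjusted p = 5.22e-05). Incenp, the scaffold, was the smallest, with 1.97, 2, 1.95 and 1.85 in TGFb1-Tg lungs, against 0.74, 0.74, 0.88 and 0.77 in WT lungs and a difference of 1.09 ± 0.07. Cdca8, borealin, had a difference of 2.07.

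Centromere genes had a median difference of 1.102 and were called higher in 4 of 4 cases. Cenpk, part of the inner kinetochore network, read 0.44, 0.54, 0.4 and 0.42 in TGFb1-Tg lungs, against 0.16, 0.16, 0.18 and 0.18 in WT lungs, a difference of 1.43 ± 0.13. Cenph, its partner, read 0.68, 0.94, 0.68 and 0.76 in TGFb1-Tg lungs, against 0.58, 0.48, 0.79 and 0.55 in WT lungs, overlapping between groups in the sample channel. Its ratio difference of 0.80 ± 0.09 was called, while the quantile-normalized sample channel gave 0.28 (adjusted p = 0.246, with 3.79e-05 to 0.246 over all settings). Its pool intensity was 0.44, 0.47, 0.43 and 0.41 on TGFb1-Tg arrays, against 0.58, 0.5, 0.79 and 0.54 on WT arrays. Cenpa, the centromeric histone variant, had a difference of 1.12, and Cenpn, which binds it, of 1.08.

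The 6 outer kinetochore and corona genes were all called higher, with a median of 1.95. Cenpf, a corona protein, read 0.36, 0.36, 0.39 and 0.32 in TGFb1-Tg lungs, against 0.06, 0.05, 0.07 and 0.05 in WT lungs, a difference of 2.59 ± 0.12 (6.03-fold, limma adjusted p = 1.36e-05); these WT values are near the lowest steps of the deposited scale. Spc24 of the NDC80 complex read 0.92, 1.17, 0.92 and 0.99 in TGFb1-Tg lungs, against 0.26, 0.18, 0.26 and 0.21 in WT lungs, and its difference of 1.52 ± 0.12 was the smallest. Its partners Spc25, Nuf2 and Ndc80, which link microtubules to the kinetochore, had differences of 2.24, 2.04 and 1.61. Cenpe, the corona kinesin, had 1.87.

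Among the 8 kinesins, 7 were called higher, with a median of 1.39 over all 8. Kif22, the chromokinesin, read 1.41, 1.79, 1.55 and 1.64 in TGFb1-Tg lungs, against 0.27, 0.21, 0.3 and 0.29 in WT lungs, a difference of 2.12 ± 0.10 (4.35-fold, limma adjusted p = 1.52e-05). Kif11, the motor that separates spindle poles, had 2.06, Kif2c, a microtubule depolymerase, 1.85, Kif20a, a cytokinesis kinesin, 1.67, Kif4, a chromokinesin, 1.104 and Kif15 1.06. Kif18a, a motor that dampens chromosome movement, had the smallest called difference, 0.73 ± 0.08; with quantile-normalized ratios it was not called, at 0.51 (adjusted p = 0.101, 3.70e-05 to 0.101 over all settings). Kif23, the midzone kinesin, read 0.14, 0.11, 0.11 and 0.11 in TGFb1-Tg lungs, against 0.13, 0.19, 0.23 and 0.12 in WT lungs, with a difference of -0.11 ± 0.04 (adjusted p = 0.061). Its single probe is listed under a transcript accession of an EST type, and its pool and sample intensities were equal on every WT array. Its difference was below 0 in every setting tried, between -0.18 and -0.07, with adjusted p of 0.00253 to 0.523, and it was called lower without TGFb1-Tg replicate 4 (-0.15, adjusted p = 0.00253) and with dim genes left out (-0.11, adjusted p = 0.0469).

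**Figure D3:**
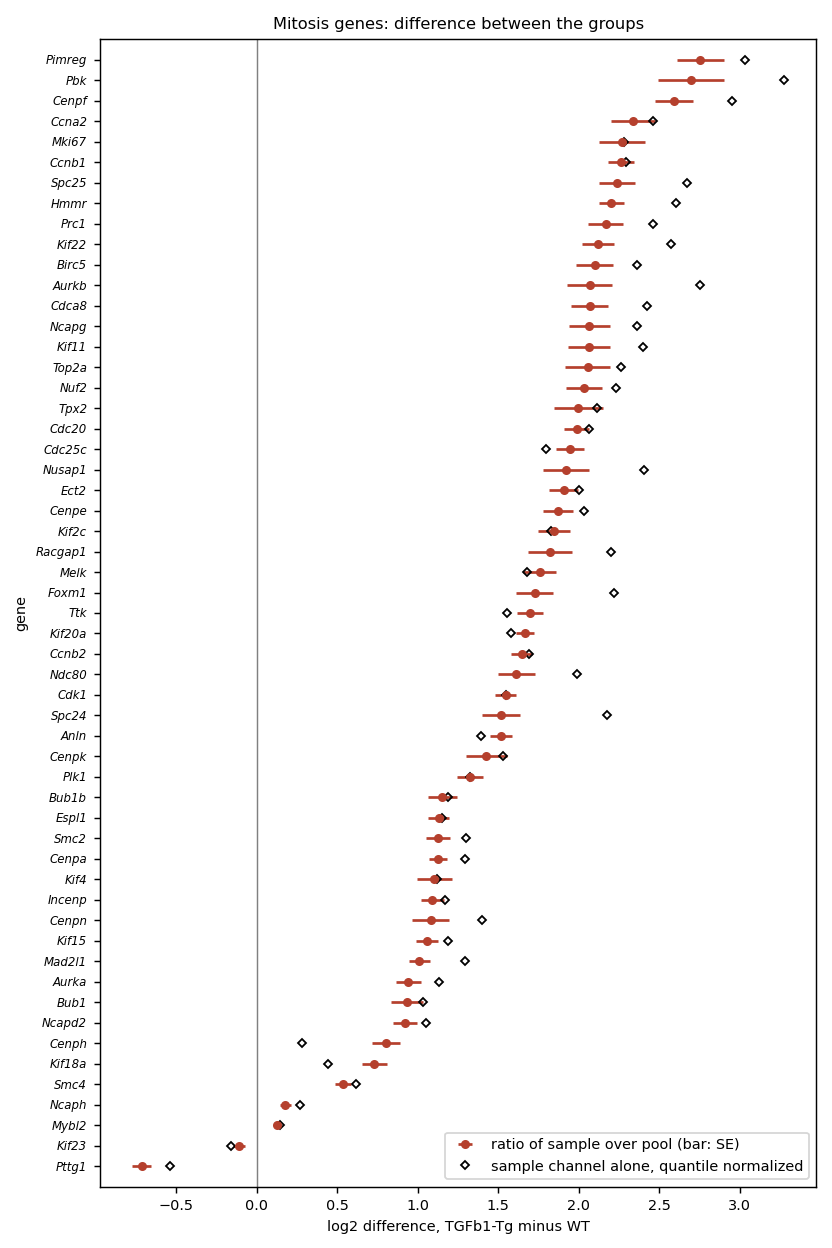
Log2 difference between TGFb1-Tg and WT for the 55 members, ordered from the largest at the top. Red points with bars are sample over pool ± SE and open diamonds are the quantile-normalized sample channel; Pimreg and Pbk stand at 2.76 and 2.70, Pttg1 at -0.71.

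Spindle assembly and midzone genes were all called higher, 4 of 4, with a median of 2.08. Hmmr, a spindle-associated hyaluronan receptor, read 0.32, 0.36, 0.44 and 0.48 in TGFb1-Tg lungs, against 0.07, 0.06, 0.09 and 0.09 in WT lungs, a difference of 2.20 ± 0.08. Nusap1, which bundles microtubules, read 0.67, 0.77, 0.71 and 0.73 in TGFb1-Tg lungs, against 0.15, 0.11, 0.19 and 0.15 in WT lungs, a difference of 1.92 ± 0.14. Prc1, the midzone bundler, had 2.17 and Tpx2, which activates Aurka, 2.00. Cytokinesis genes, 3 of 3 called higher, had a median of 1.82. Ect2, the exchange factor that activates RhoA, read 1.48, 1.65, 1.33 and 1.5 in TGFb1-Tg lungs, against 0.35, 0.32, 0.4 and 0.37 in WT lungs, a difference of 1.91 ± 0.09. Anln, anillin, read 1.24, 1.5, 1.37 and 1.51 in TGFb1-Tg lungs, against 0.51, 0.47, 0.55 and 0.49 in WT lungs, a difference of 1.52 ± 0.07. Racgap1, Ect2's partner in the central spindle, had 1.82.

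Condensin compacts chromosomes, and its 5 genes were called higher, with a median of 0.92. Ncapg read 0.605, 0.785, 0.665 and 0.64 in TGFb1-Tg lungs, against 0.145, 0.11, 0.185 and 0.14 in WT lungs, with a difference of 2.07 ± 0.13 (4.19-fold, limma adjusted p = 3.68e-05), close between its 2 probes (2.08 and 2.06). Ncaph, the kleisin subunit, read 0.32, 0.365, 0.36 and 0.365 in TGFb1-Tg lungs, against 0.3, 0.275, 0.33 and 0.27 in WT lungs over 2 probes. Its difference was the smallest of the 5, at 0.18 ± 0.04 (adjusted p = 0.00639), with its probes at 0.41 and -0.05; on the second the WT sample equalled its pool on all 4 arrays. Ncaph was not called with quantile-normalized ratios (0.11, adjusted p = 0.0768) or in the quantile-normalized sample channel (0.27, adjusted p = 0.112), and its adjusted p spanned 0.000643 to 0.112 over all settings. Ncapd2 probes gave 1.20 and 0.64. Smc2 had 1.13. Smc4 was bright in both groups, at 6, 5.82, 6.37 and 5.88 in TGFb1-Tg lungs, against 3.57, 3.58, 3.57 and 3.23 in WT lungs, a difference of 0.54 ± 0.05; the sample channel alone gave 1.07 and quantile-normalized ratios 0.29, and it was called in both.

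Of the regulators, Foxm1, a transcription factor of late cell-cycle genes, read 0.4, 0.49, 0.47 and 0.49 in TGFb1-Tg lungs, against 0.11, 0.1, 0.13 and 0.12 in WT lungs, a difference of 1.73 ± 0.11 (3.31-fold, limma adjusted p = 4.43e-05). Mybl2, B-MYB, read 2.58, 2.4, 2.38 and 2.64 in TGFb1-Tg lungs, against 2.18, 2.09, 2.06 and 1.7 in WT lungs. Its difference of 0.13 ± 0.02 (1.09-fold, limma adjusted p = 0.00462) was small beside the other members; the sample channel alone gave 0.61, and with quantile normalization 0.14 (adjusted p = 0.260, 0.000736 to 0.441 over all settings). Pimreg, listed in the file under its older name Fam64a, had the largest difference of the members, 2.76 ± 0.15 (6.76-fold, limma adjusted p = 2.06e-05), from intensities of 0.73, 0.79, 0.79 and 0.8 in TGFb1-Tg lungs, against 0.09, 0.09, 0.14 and 0.11 in WT lungs.

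Read in the sample channel alone, 53 of 55 members were called higher (35.1% of all genes), with a median difference of 2.00; centring moved the median of all genes to 0.12 there. With quantile normalization, the sample channel called 50 higher (20.5% of all genes) and 1 lower (13.2%), with a median of 1.80. With quantile-normalized ratios, 50 were called higher (6.25% of all genes) and 1 lower (5.76%), with a median of 1.18. Quantile normalization of the ratios brought the differences of Bub1, Bub1b, Ttk and Incenp to 0.58, 0.74, 1.1 and 0.71, and those of Cenpn, Kif15, Anln and Ncapd2 to 0.68, 0.58, 1.01 and 0.61, all still called. Most members had a larger difference in the sample channel alone than in the ratio. Mad2l1, Spc24 and Smc2 were among them, at 1.57, 2.43 and 1.73. Pool intensity of members differed between the array sets: the log2 pool level was higher on TGFb1-Tg arrays in 49 members and lower in 6, by a median of 0.40, against 0.14 over all genes. It ran from -0.23 for Cdc25c to 0.86 for Spc24.

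The lungs of a group differed in the members' level. Array medians over the members were 1.58, 1.81, 1.65 and 1.71 in TGFb1-Tg lungs, against 0.0, -0.15, 0.18 and 0.0 in WT lungs. TGFb1-Tg replicate 2 was the highest of its group in 42 of 55 members and replicate 1 the lowest in 45, against 23.4% and 35.3% of all genes with values on every array. WT replicate 3 was the highest in 45 members and WT replicate 2 the lowest in 45, against 21.7% and 24.2%. In these ranks and those below, a tie between lungs went to the lower replicate number, so the shares depend in part on that order. In the sample channel, TGFb1-Tg replicate 2 was the highest in 47 members and replicate 1 the lowest in 41, and WT replicate 2 was the lowest in 42. WT replicate 3 was the highest there in only 24, with WT replicate 4 the highest in 19 and WT replicate 1 in 11. The shares over all genes were not taken in that channel, and the part of array-wide shifts in these ranks was not tested. The median SD between lungs was 0.12 in TGFb1-Tg and 0.15 in WT for the members, against 0.070 and 0.070 for all genes.

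The other 70 mitosis genes tested, a list of further kinetochore, centrosome and spindle genes, had 64 called higher and 2 lower, with a median of 0.97. Depdc1a, Cep55, an abscission protein, and Aspm, a spindle pole protein, had the largest differences, 2.53 ± 0.10, 2.35 ± 0.15 and 2.27 ± 0.17. Zwint, a kinetochore protein, at -0.24 ± 0.06, and Bub3, a checkpoint protein, at -0.13 ± 0.03, were called lower in the ratio but not in the sample channel, where Zwint was called higher, at 0.44 (adjusted p = 0.00813), and Bub3 was at 0.23 (adjusted p = 0.0974). Their adjusted p spanned 0.00173 to 0.886 and 0.00136 to 0.568 over all settings. Dlgap5 was not called, at -0.03 ± 0.03. Its sample intensities were 3.26 to 8.12 and nearly equal to the pool on every array. Whether its probe reads Dlgap5 was not tested. Of 15 genes of the anaphase-promoting complex, subunits and the co-activator Fzr1, 5 were called higher and 4 lower, with a median of -0.03, where 19% of all genes were called higher and 19.8% lower. Cdc27, Fzr1 and Anapc4 were the highest, at 0.40, 0.32 and 0.27, and Cdc26, Anapc16 and Anapc5 the lowest, at -0.34, -0.18 and -0.14. The direction of the lowest turned in the sample channel alone, where Cdc26 was at 0.06 and Anapc16 and Anapc5 were called higher, at 0.31 (adjusted p = 0.0293) and 0.53 (adjusted p = 0.00377). There 12 of the 15 were called higher, against 35.1% of all genes, and with quantile normalization of that channel 4 were, against 20.5%.

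**Figure D4:**
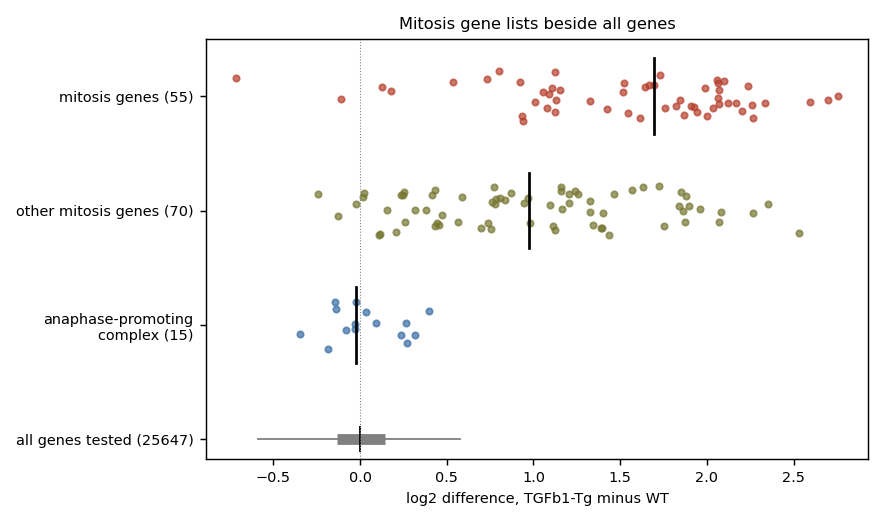
Log2 difference between TGFb1-Tg and WT for each gene of 3 lists (dots, with the median as a bar) beside all genes tested, where the box spans the central 50% of genes and the line the central 90%. The lists' medians are 1.70, 0.97 and -0.03, and that of all genes is 0.0.

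Some markers of other cells differed between the groups, and their part in the mitosis genes' difference was not tested. For the counts below, 19% of all genes were called higher in the ratio and 19.8% lower. A list with 1 called lower of 6 or of 4 is close to that share. The sample channel alone called 35.1% of all genes higher and 13.2% lower. With quantile normalization of that channel the shares were 20.5% and 13.2%. Leukocyte markers were called higher in 4 of 5 tested, with a median difference of 0.30. Their summed sample intensity was 27.3 to 29.3 in TGFb1-Tg lungs, against 16.8 to 18.65 in WT lungs. Cd68 of macrophages had a difference of 1.25 and Adgre1 of 0.79. Csf1r and Itgam, also called higher, rose less, while Ptprc, the pan-leukocyte marker, was not called in the ratio, at 0.02. Ptprc read 7.61, 8.16, 7.68 and 8.06 in TGFb1-Tg lungs, against 5.5, 4.55, 5.91 and 6.04 in WT lungs, and its pool 7.94, 7.69, 7.56 and 7.78 on TGFb1-Tg arrays, against 5.89, 5.38, 5.03 and 5.61 on WT arrays. All 5 leukocyte markers were called higher in the sample channel alone, Ptprc among them, at 0.81 (adjusted p = 0.000808), and 3 of 5 were with quantile normalization of that channel. T and B cell markers were called lower in 3 of 7 in the ratio and higher in 0, at a summed intensity of 4.63 to 5.92 in TGFb1-Tg lungs, against 4.72 to 6.19 in WT lungs. Of these 7, the sample channel alone called 1 higher and 0 lower (limma, 2 and 0 at an unadjusted p under 0.05), and with quantile normalization of that channel 0 were called in either direction (0 and 0 unadjusted), so the lower calls rest on the ratio. Erythroid precursor markers had 1 called lower of 6, at 0.84 to 6.275 in TGFb1-Tg lungs, against 0.98 to 2.46 in WT lungs. Thymocyte markers had 1 called lower of 4 and summed to 0.079 to 0.11 in TGFb1-Tg lungs, against 0.16 to 0.23 in WT lungs, near the lowest deposited steps; the sample channel alone called 2 lower in each of these lists. Fibroblast markers had 2 called higher, Col1a1 at 0.73 among them, and 2 lower (1 in the sample channel alone), Pdgfra at -1.04 among them, of 4, at 52.8 to 58.6 in TGFb1-Tg lungs, against 43.7 to 49.7 in WT lungs. Cardiac muscle markers were called lower in 4 of 4, summing to 16.5 to 19.1 in TGFb1-Tg lungs, against 36.4 to 45.7 in WT lungs. The cardiac sum of WT replicate 4 lacks Myh6, which had no value there. Fat markers were called lower in 3 of 3 (2 of 3 in the sample channel alone). They summed to 0.75 to 1.115 in TGFb1-Tg lungs, against 1.715 to 2.41 in WT lungs.

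The authors' deposited p-values, given per probe on every array with no test named, were under 0.01 for 55, 56, 55 and 55 of the 60 member probes on the TGFb1-Tg arrays, against 0, 1, 0 and 0 on WT arrays. Over all probes, the authors' deposited p-values were under 0.01 for 9.85% to 11.5% on TGFb1-Tg arrays, against 0.120% to 0.334% on WT arrays.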

How the data were processed

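RNA was measured on 8 arrays, 4 TGFb1-Tg and 4 WT, grouped by the labels. Trizol was used to extract total RNA, of which 100 ng went through 2 amplification rounds, per the labels' protocols. The submitters' processing notes name Agilent Feature Extraction 8.5.1.1; its settings, the slides and the scan runs: not given in the sources used here. The deposited intensities of both channels were scaled by the authors and given to 2 decimals from 0.01 up. The authors' deposited p-values describe single arrays and entered no test. A value table with deposited log10 ratios served as an alternative.

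Log2 sample over pool was taken from the intensities with no pseudocount. Of 39341 probes, 6974 were named by RefSeq accession, 16550 kept a current symbol, 2555 were updated, 3984 kept the symbol of the file and 9278 had no gene. Probes of a gene were averaged. Each array had values for 39039 to 39281 probes, and the number of arrays limits the precision. Genes with at least 2 values per group were fitted in limma 3.58.1 (R 4.3.3, lmFit and eBayes, no block), with Benjamini-Hochberg adjustment over 25647 genes and calls at 0.05. Differences are TGFb1-Tg minus WT with the fit's standard error. Where nothing says that lungs came from separate mice, p-values measure the spread between these samples. The fit was tested on simulated data. The members and lists were chosen with earlier results of these data known. Values per array are given for Mki67, Top2a, Cdk1, Ccnb1, Plk1, Aurkb, Foxm1, Mybl2 and the members with the largest and smallest difference of each role group; Smc4 was added after its values were seen. Of the other lists, the 3 genes with the largest and the 3 with the smallest difference could be named.

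Alternatives were the sample channel alone, quantile normalization of the ratios, a pseudocount of 0.02, leaving out genes under 0.1 in both channels, the brightest probe, symbols as in the file, the value table, the replicate number as a block and leaving out each lung. The sample channel with quantile normalization was added after seeing the data, since medians of 2-decimal values centre coarsely. Promoter letters came from RefSeq windows on GRCm38.p6. The result of 1 marker list is not reported here.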

Additional observations from a re-analysis of the deposited data

Results flagged for a closer look

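Of 114 sets of 4 lungs tested for a single value far from the other 3, 6 were picked out, where chance gives about 1 in 20. In TGFb1-Tg lungs, Ttk was 1.918 in replicate 4, above 1.71 to 1.737 in the others, and Anln was 1.369 in replicate 1, below 1.574 to 1.614. In WT lungs, Mad2l1 was -0.05063 in replicate 4 with the others at 0.0, and Cenpa was -0.1481 in replicate 2, below 0.03395 to 0.06711. WT replicate 3 was apart in Kif15, at 0.2274 with the others between 0.0 and 0.03653, and in Smc2, at 0.1722 with the others between -0.06054 and -0.03477. All are log2 ratios of sample over pool, and each of these genes was called higher with and without every single lung.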

How the results depend on the processing

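The 55 members kept their direction under every alternative run, and 53 were called higher with any single lung left out. In the sample channel alone, 9003 genes were called higher, the member median was 2.00, members called lower were 0 (limma; 0 at an unadjusted p under 0.05), other mitosis genes called lower were 0 (0 unadjusted), and genes of the anaphase-promoting complex were 12 higher and 0 lower (0 unadjusted). With quantile-normalized ratios, 1602 genes were called higher and 1478 lower, the member median was 1.18, other mitosis genes called lower were 0 (1 unadjusted), and the complex had 3 higher and 0 lower (1 unadjusted). In the sample channel with quantile normalization, 3383 genes were called lower, with 0 of the other mitosis genes (0 unadjusted) and 0 of the complex (1 unadjusted). Members called lower were 2 without dim genes and 1 to 2 with a lung left out, Kif23 joining without TGFb1-Tg replicate 4; other mitosis genes called lower were 1 to 2, with 1 without WT replicate 1 and 1 without WT replicate 3. Single calls lost were Kif18a (0.51, adjusted p = 0.101), Ncaph (0.11, adjusted p = 0.0768) and Mybl2 (0.08, adjusted p = 0.441) with quantile-normalized ratios, and Cenph, Ncaph (0.27, adjusted p = 0.112) and Mybl2 in the quantile-normalized sample channel. The cause was not tested.

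Replicate numbers showed no sign of pairing the lungs. Deviations from the group means correlated at 0.03, -0.04, 0.04 and 0.03 between same-numbered arrays over 16682 genes. Differently numbered arrays ran from -0.20 to 0.18, and not every array correlated best with its own number. So few arrays cannot exclude a pairing. With the replicate block, 4391 genes were called higher and 4546 lower, and 53 members higher and 1 lower. Intensities near the lowest deposited step limit Cdc25c, Cenpf, Hmmr, Kif2c and Tpx2.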
